A study of Mus musculus with 4 samples.

Results

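H3K36me3 peaks that B6 and KI germ cells share outside annotated genes are described here. They are the B6 refined peaks on the 19 autosomes that overlapped a KI refined peak by at least 1 bp and overlapped no gene of any type in the GENCODE annotation of mm9. There were 1392 such peaks among the 54236 refined peaks of B6 on autosomes and the 58502 refined peaks of B6 on all chromosomes. They were selected on the positions of both peak lists, so that sharing, and the widths that bear on it, are given as a description and not as a result. An overlap with KI was present for 17.7% of all autosomal B6 refined peaks and for 12.2% of the 11418 outside genes.

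The peaks come from H3K36me3 ChIP-seq of juvenile germ cells, 14 days post-partum (dpp), in 2 strains. B6 is C57BL/6J. KI, B6.Cg-Prdm9<tm1.1Kpgn>/Kpgn, is a knock-in on the B6 background whose Prdm9 gene has the terminal, zinc finger-encoding exon of the Cst allele, so both strains share 1 genome at the peaks described here. The labels give the cells as spermatocytes, the inputs as 15 dpp and, in the antibody field, H3K36me6 in place of the H3K36me3 of the titles. The biological replicates of each strain were merged by the authors before peak calling, so each strain has 1 list of narrow (refined) peaks and 1 list of broad (unrefined) regions, and no value below has a replicate error. The lists hold positions without heights or read numbers. The depth behind a single peak is therefore unknown, KI was sequenced more deeply than B6, and how many cells carried the mark and how strongly each cell carried it cannot be told apart. Shares are given with Wilson 95% intervals, which cover the number of peaks only.

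H3K36me3 is placed along the bodies of transcribed genes by SETD2, which travels with elongating RNA polymerase II, and is low at promoters, where H3K4me3 is found. In meiotic germ cells PRDM9 also places H3K36me3, together with H3K4me3, at the recombination hotspots that its zinc fingers select. The zinc fingers differ between B6 and KI, whereas SETD2 does not. The cells had the marks of germ cells: all 10 germ cell marker genes examined, among them Ddx4, Dazl and Sycp3, were covered by broad regions over at least 50% of their length in both strains. Of 10 marker genes of Sertoli, Leydig and peritubular cells, Star was so covered in both strains and Wt1 in B6 alone. The median coverage of these 10 somatic genes was 17.7% in B6 and 0.920% in KI, and its part in the peaks below was not tested.

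The sequences of 3 shared peaks are shown first, because they span the range from nearly full to slight coincidence of the strains and include both single-copy and highly repeated sequence. They are mm9 reference bases, and capitals mark bases that lie in the refined peaks of both strains.
Peak upstream of Rbfox1, chr16:6223848-6224119, forward strand: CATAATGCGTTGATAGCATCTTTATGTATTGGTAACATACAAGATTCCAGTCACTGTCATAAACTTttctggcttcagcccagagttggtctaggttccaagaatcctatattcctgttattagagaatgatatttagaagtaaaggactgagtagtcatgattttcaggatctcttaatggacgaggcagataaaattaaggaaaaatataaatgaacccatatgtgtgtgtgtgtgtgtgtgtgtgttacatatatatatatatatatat
Peak beyond Rad54b, middle 300 bases, chr4:11546161-11546460, forward strand: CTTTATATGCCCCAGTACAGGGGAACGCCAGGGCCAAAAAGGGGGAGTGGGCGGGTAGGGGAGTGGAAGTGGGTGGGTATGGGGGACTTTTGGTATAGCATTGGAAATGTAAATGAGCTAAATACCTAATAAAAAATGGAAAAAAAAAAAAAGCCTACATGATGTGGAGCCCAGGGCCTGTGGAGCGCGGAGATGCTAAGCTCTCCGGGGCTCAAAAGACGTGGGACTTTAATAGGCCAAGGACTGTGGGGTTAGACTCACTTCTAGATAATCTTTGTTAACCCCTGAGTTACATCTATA
Peak beyond Lmbrd1, middle 300 bases, chr1:24824576-24824875, forward strand: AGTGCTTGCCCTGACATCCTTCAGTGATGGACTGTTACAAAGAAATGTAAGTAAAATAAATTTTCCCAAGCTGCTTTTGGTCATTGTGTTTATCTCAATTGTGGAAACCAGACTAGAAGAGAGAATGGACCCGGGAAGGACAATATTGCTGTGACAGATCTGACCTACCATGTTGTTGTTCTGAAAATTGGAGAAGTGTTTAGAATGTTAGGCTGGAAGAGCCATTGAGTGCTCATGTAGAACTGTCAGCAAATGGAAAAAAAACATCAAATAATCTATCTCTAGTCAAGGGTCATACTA
The first peak, among the 5 farthest from genes, lay 585196 bp upstream of Rbfox1, which encodes a splicing regulator. There the KI peak, from 6222896 to 6223913 on chromosome 16, covered 66 of the 272 bases of the B6 peak. The second peak lay 2927 bp beyond the 3′ end of Rad54b, which encodes a DNA repair protein of the RAD54 family. It was the closest match of both strains among pairs of at least 300 bp, from 11545879 to 11546738 on chromosome 4 in B6 and from 11545885 to 11546740 in KI. Shared bases made up 99.1% of the joint length of this pair. Of 10 stretches of 32 bases sampled in its middle 400 bp, 50% had further exact copies in mm9, up to 24595 for a single stretch. The third, 1368 bp beyond the 3′ end of the lysosomal gene Lmbrd1, matched nearly as well with 96.0% and held no repeated stretch. Further remote peaks lay 334808 bp from Adamts20, 290882 bp from Tshz1 and 226406 bp from a U6 gene. The other close matches lay near Synj2bp (95.2%), Slc7a15 (94.8%) and Gm10471 (94.8%), with 50%, 100% and 50% of the sampled stretches repeated.

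The 1392 B6 peaks had a median width of 360.5 bp (interquartile range 267 to 553, up to 2747). Their KI partners had a median width of 380.5 bp (interquartile range 273 to 583, up to 3071), and the KI peak was the wider one in 51.7% of the pairs. In 12 cases more than 1 KI peak overlapped the B6 peak, and the one with the longest overlap was taken. There were 1380 different KI partners, of which 37 reached into a gene. The bases in common numbered 217 per pair at the median (interquartile range 113 to 295). They made up a median of 32.9% of the joint length, and 410 pairs (29.5%, 27.1% to 31.9%) had at least 50% in common. Midpoints of both peaks lay a median of 169.75 bp apart, and 479 pairs had them within 100 bp. For the 8201 shared peaks inside genes these medians were much the same, 32.8% of the joint length and 167.5 bp. At the limits of the rule, 34 of the peaks overlapped the KI peak by 10 bp or less, and 37 B6 peaks outside genes missed a KI peak by 10 bp or less. Likewise 20 of the peaks lay within 100 bp of a gene, whereas 85 shared peaks overlapped a gene by 100 bp or less.

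**Figure D1:**
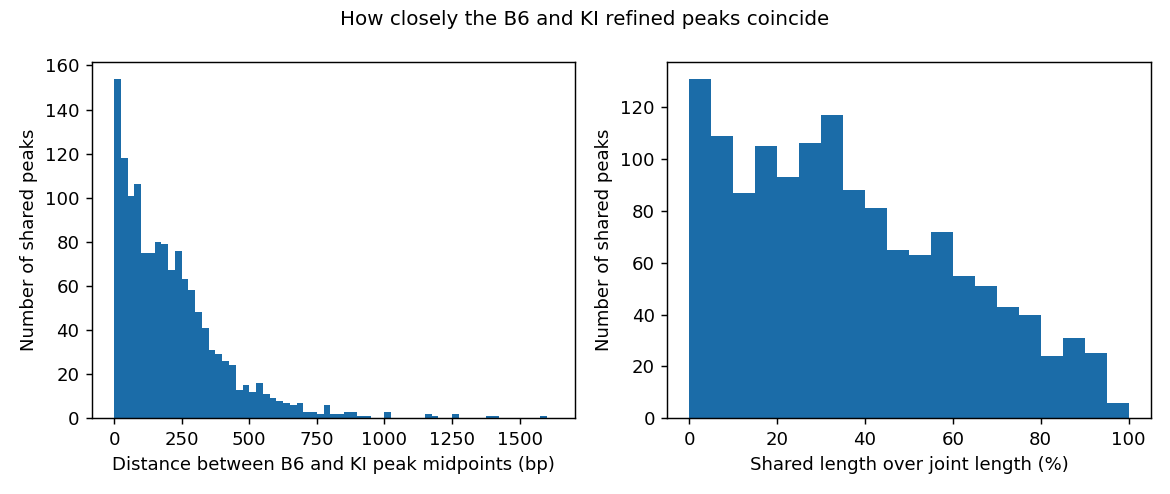
Histograms of the distance between B6 and KI peak midpoints in bp (left, bins of 25 bp) and of the shared over the joint length of each pair in percent (right, bins of 5%), for the 1392 shared peaks outside genes. The distances crowd near 0 with a median of 169.75 bp, whereas the shared length is spread from nearly 0 to 99.1% with a median of 32.9%.

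The width of a refined peak in B6 was little related to that of its partner in KI. Across the 1392 pairs, Spearman's rho between both widths was 0.016, and across the 8201 shared peaks inside genes it was -0.041. The broad regions that held the peaks were more alike, with a rho of 0.55 between their widths in B6 and KI. These points share 1 list per strain and are not replicates. Both in B6 and in KI these regions were 3000 bp wide at the median, and for 195 pairs (14.0%) they had the same first and last base in B6 and KI. Broad regions begin and end on a fixed grid of the caller's windows, and none here was under 2000 bp. Equal ends, here and below, therefore mean the same windows and not agreement to the base. Peaks of at least 1 kb in both strains were rare, with 9 of 1392. The 5 widest B6 peaks show the difference in width. The widest, 2747 bp on chromosome 10 from 23502179 to 23504925, lay 65 bp beyond the 3′ end of Rps12, a ribosomal protein gene, and its KI partner of 422 bp lay inside it. The next, 2578 bp, lay 983 bp before the 5′ end of Higd1a, which encodes a mitochondrial protein, with a KI partner of 1151 bp. A peak of 2522 bp lay 138 bp beyond the 3′ end of Rplp1, again a ribosomal protein gene. Its KI partner of 470 bp reached into Rplp1. The remaining ones, of 2454 bp upstream of Cyb5r3 and 2415 bp upstream of Zfp850, had KI partners of 234 and 1142 bp. In each of these 5 cases the KI peak was the narrower one, which choosing by B6 width favours.

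**Figure D2:**
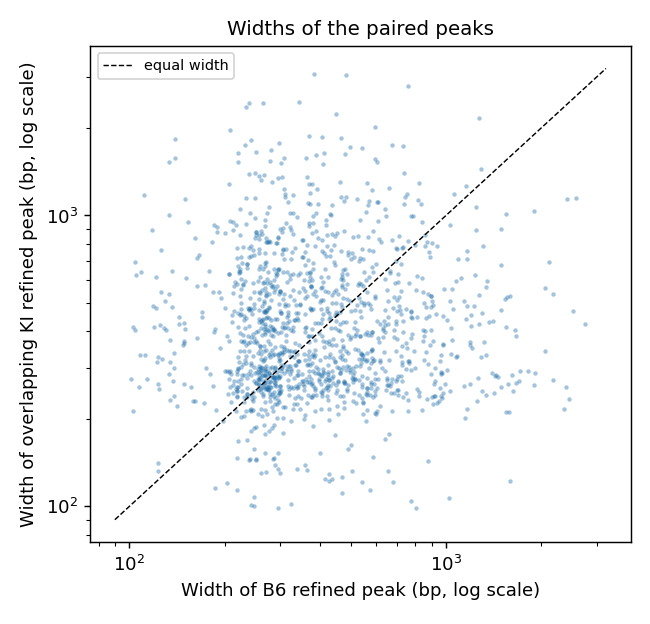
Width of each shared B6 refined peak outside genes (horizontal axis) against that of the overlapping KI refined peak (vertical axis), both in bp on log scales, with 1 point for each of 1392 pairs and a dashed line at equal width. The points form a cloud on both sides of the line without a trend (rho 0.016).

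To see where the shared peaks lie, they were compared with the other B6 refined peaks outside genes on autosomes. Of these, 2489 were B6-only peaks that met a KI broad region but no KI refined peak, and 7537 were B6-only peaks that met no KI region of either kind. With 1 list per strain, no test between these sets was made, and the order of the sets on the 19 autosomes is given instead. The shared peaks lay near genes. Their median distance to the nearest gene was 7153.5 bp (interquartile range 2588.75 to 17389.5), close to the 6753 bp of the B6-only peaks on KI broad regions, whereas the median for the peaks with no KI region was 21546 bp. It was lower for the shared peaks than for the peaks with no KI region on 19 of 19 autosomes, and higher than for the B6-only peaks on KI broad regions on 15 of 19, with 4 the other way. Sets with no region in the other strain were chosen for that, and broad regions often cover genes. A greater distance from genes was therefore favoured in advance for these sets, here, in KI and in the numbers per Mb below, which are a description only. Of the shared peaks, 560 (40.2%, 37.7% to 42.8%) lay within 5 kb of a gene, against 42.0% (40.1% to 43.9%) and 19.8% (18.9% to 20.7%) for the other sets. More than 50 kb from any gene lay 128 shared peaks (9.20%), against 32.4% of those with no KI region. In the KI list, 41.0% (38.5% to 43.6%) of the 1412 refined peaks that were shared and outside genes lay within 5 kb of a gene. This was below the 47.5% (45.9% to 49.2%) of the 3542 KI-only peaks on B6 broad regions and above the 15.7% (15.0% to 16.3%) of the 11619 KI-only peaks with no B6 region.

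Counted by their midpoints per Mb of sequence outside genes, the shared peaks were frequent just beyond 3′ ends and scarce just before 5′ ends. There were 5.62 per Mb in the first 1 kb beyond a 3′ end (134 peaks in 23.8 Mb) and 0.482 per Mb in the first 1 kb before a 5′ end (11 peaks in 22.8 Mb). Upstream of genes the number rose to 1.98 per Mb from 1 to 2 kb and 3.27 per Mb from 2 to 5 kb. Beyond 3′ ends it fell to 2.12 per Mb from 2 to 5 kb. Beyond 100 kb from any gene it was 0.127 per Mb on the 3′ side and 0.0880 per Mb on the 5′ side. The B6-only peaks on KI broad regions had a similar profile at a higher level, with 287 peaks in the first 1 kb beyond 3′ ends and 28 in the first 1 kb before 5′ ends. The peaks with no KI region had a flatter one, with 7.30 and 2.36 per Mb there and 3.44 and 3.61 per Mb beyond 100 kb. Among peaks within 5 kb of a gene, 58.4% (54.3% to 62.4%) of the shared ones lay beyond a 3′ end, against 65.7% (62.8% to 68.6%) of the B6-only peaks on KI broad regions and 57.5% (55.0% to 60.0%) of those with no KI region. With protein-coding genes alone the value for shared peaks was 50.6% (46.5% to 54.7%), so the excess on the 3′ side depended on the gene set.

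**Figure D3:**
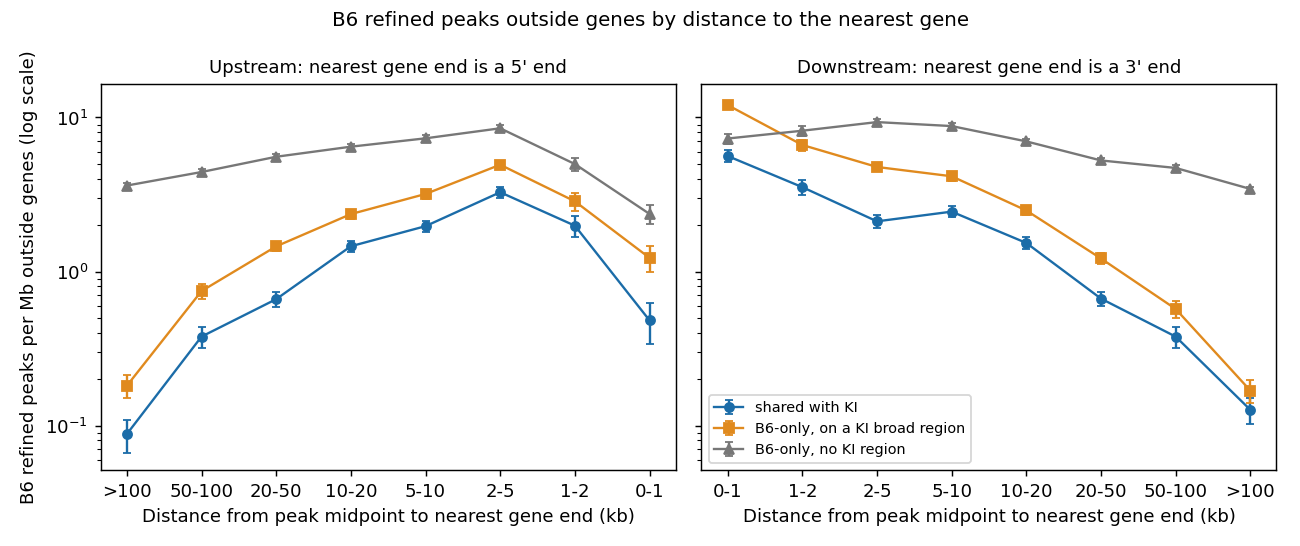
B6 refined peaks per Mb of sequence outside genes (log scale) by distance in kb from the peak midpoint to the nearest gene, before 5′ ends (left) and beyond 3′ ends (right), for the shared peaks and both sets of B6-only peaks, with bars of 1 square root of the count. The shared peaks go from 0.482 per Mb just before 5′ ends to 5.62 per Mb just beyond 3′ ends and fall below 0.13 per Mb beyond 100 kb.

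The genes next to the shared peaks were often marked themselves. The nearest gene was protein-coding for 1086 of the 1392 peaks. Of these, 678 (62.4%, 59.5% to 65.3%) had a nearest gene covered over at least 50% of its length by broad regions in both strains, whereas 40.2% of all 21418 autosomal protein-coding genes were so covered. The share was 68.5% (66.4% to 70.5%) for B6-only peaks on KI broad regions and 39.9% (38.6% to 41.3%) for those with no KI region. KI broad regions divide these sets and also enter this coverage. A low share for peaks with no KI region was therefore favoured in advance. Broad regions that hold the shared peaks also count in this coverage where they overlap a gene, which favours a share above that of all genes. In contrast, 106 of the shared peaks (9.76%, 8.13% to 11.7%) had a nearest protein-coding gene without any coverage in either strain, against 33.9% of all such genes. The mark was seldom continuous from the gene to the peak. The B6 broad region of 236 shared peaks (17.0%, 15.1% to 19.0%) and the KI broad region of 228 (16.4%, 14.5% to 18.4%) overlapped a gene, and for 1130 peaks (81.2%) neither did. For B6-only peaks on KI broad regions the B6 share was 20.7% (19.1% to 22.3%), and for those with no KI region it was 4.26% (3.83% to 4.74%). That last set was chosen for meeting no KI region, so this comparison is a description only. The arrangement of the flanking genes showed little. Of the 1388 shared peaks with a gene on both sides, 24.6% lay between convergent genes, between divergent genes 20.3% and between genes of the same direction 55.1%, beside 23.9%, 22.5% and 53.6% of the bases outside genes.

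The named gene lists were counted as the nearest gene within 50 kb of a shared peak. Peaks farther out stay in the totals but cannot count for any list. They were 9.20% of the shared peaks and 32.4% of those with no KI region, which lowers every list share of the latter. Zfp genes, which encode zinc finger proteins, most of them presumed DNA-binding factors, were the nearest gene within 50 kb for 43 shared peaks (3.09%, 2.30% to 4.13%). This was close to the B6-only peaks on KI broad regions (2.93%) and above those with no KI region (1.22%, 1.00% to 1.49%), while 1.07% of all autosomal genes are Zfp genes. The 43 peaks belonged to 37 genes, and the nearest Zfp gene was covered over at least 50% in both strains for 36 of them. Zfp42, which encodes the pluripotency factor REX1, had a shared peak of 420 bp 174 bp beyond its 3′ end. Zfp961, at 1164 and 3366 bp from its 5′ end, had a pair of shared peaks. Ribosomal protein genes were nearest to 7 shared peaks, 6 of them beyond the 3′ end, as at Rps12 and Rplp1. Their share, 0.503% (0.244% to 1.03%), was near the 0.416% of autosomal genes that encode ribosomal proteins and the 0.643% of the B6-only peaks on KI broad regions. Rps21 had its peak 1454 bp before the 5′ end. Olfactory and vomeronasal receptor genes, which are mostly silent outside sensory neurons, make up 4.84% of autosomal genes and were nearest to 12 shared peaks (0.862%), beside 0.804% of the B6-only peaks on KI broad regions and 1.47% of the peaks with no KI region. The intervals of these shares overlap. Of the 32 meiotic genes on the list that were found on autosomes, such as Sycp3 and Dmc1, 0 were the nearest gene of a shared peak within 50 kb, which allows a share of up to 0.275% by the upper limit of the interval. These genes are 0.0923% of autosomal genes, which lies within that limit, and were nearest to 4 of the B6-only peaks on KI broad regions (0.161%). Of 17 genes of germ cell RNA biology, 0.0491% of autosomal genes, 1 was nearest to shared peaks, Asz1, with 3 peaks (0.216%, 0.0733% to 0.632%). Genes of this list were nearest to 10 of the B6-only peaks on KI broad regions (0.402%, 0.218% to 0.738%).

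Asz1, which encodes an ankyrin repeat protein of the piRNA pathway, had 3 shared peaks in the 35672 bp between its 5′ end and the next annotated gene, Gm15593. The B6 peaks ran from 18061413 to 18061800, from 18065237 to 18065515 and from 18072421 to 18074481 on chromosome 6, at 2352, 6176 and 13360 bp from the 5′ end of Asz1. Their KI partners ran from 18060544 to 18062156, from 18065016 to 18065376 and from 18072409 to 18072749. Broad regions covered 92.1% of Asz1 in B6 and 96.5% of it in KI, but none of the broad regions that held these B6 peaks touched it. The 10 stretches sampled in each of these peaks were all single-copy.

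Most shared peaks lay near other B6 refined peaks, and fewer near one another. Their share of 12.2% among B6 peaks outside genes favours this, and runs were not counted for the other sets. Of the 1392, 439 (31.5%, 29.2% to 34.0%) had no other B6 refined peak of any kind within 10 kb, against 28.1% (26.4% to 29.9%) of the B6-only peaks on KI broad regions and 66.1% of those with no KI region. With shared peaks no more than 10 kb apart joined, they formed 1246 runs, of which 1122 held 1 peak, 106 held 2 and 18 held more, counted from 15 runs of 3, 2 of 4 and 1 of 5. The run of 5 spanned 26616 bp on chromosome 7 from 39074258 to 39100873, near Pop4, which encodes a subunit of RNase P. The 4 shared peaks of the next run lay on chromosome 15 from 66988318 to 67003868, upstream of the sialyltransferase gene St3gal1. The other run of 4 lay on chromosome 7 from 48772555 to 48788084, between AW146154 and Gm6871. Chromosome 7 also held the most shared peaks between neighbouring genes. The adjacent stretches between genes from Pop4 to Gm16387 were 109, 138 and 7199 kb long and held 7, 8 and 6 shared peaks. Of these 21 peaks, 16 had at least 50% of their sampled 32-base stretches repeated in mm9. The 3 lengths count unassembled bases (N), which the Mb outside genes leave out. In the longest stretch no shared peak lay more than 99869 bp from a gene. Over the autosomes the number of shared peaks per Mb outside genes ranged from 0.448 on chromosome 3 to 1.68 on chromosome 11, with a median of 0.944. The share of B6 peaks outside genes that were shared ranged from 7.39% (5.60% to 9.69%) on chromosome 3 to 18.4% (14.2% to 23.5%) on chromosome 19, and on chromosome 7 it was 16.6% (14.0% to 19.5%).

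**Figure D4:**
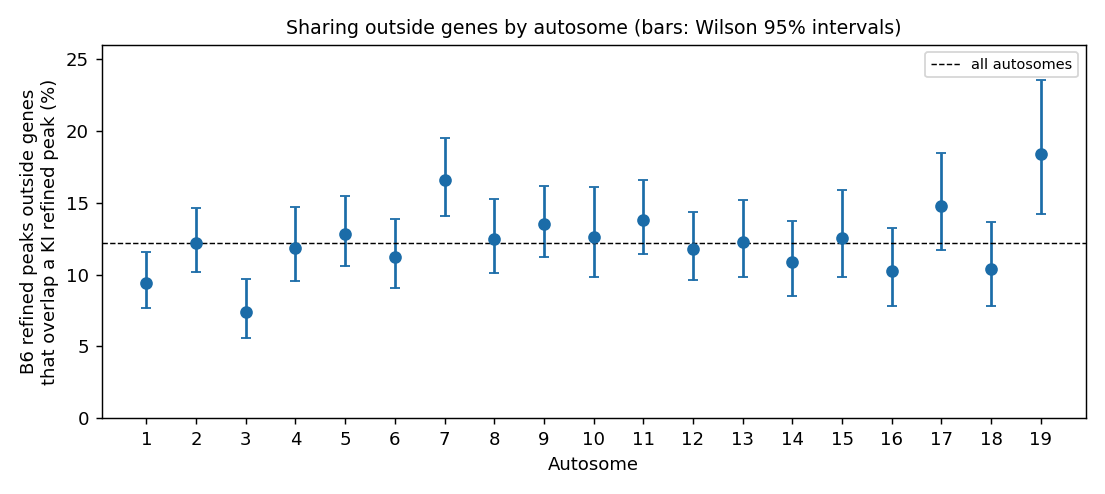
Percent of B6 refined peaks outside genes that overlap a KI refined peak on each of 19 autosomes, with Wilson 95% intervals and a dashed line at the value over all of them (12.2%). Chromosome 3 lies lowest at 7.39%, and chromosomes 7 and 19 lie highest at 16.6% and 18.4%.

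Repeated sequence was more common at shared peaks than at peaks with no KI region, and somewhat more common than at the B6-only peaks on KI broad regions. In windows of 400 bp at the middle of each peak, 10 stretches of 32 bases were looked up in mm9 on both strands. At least 50% of them had a further exact copy for 292 of the 1392 shared peaks (21.0%, 18.9% to 23.2%). The share was 16.8% (15.3% to 18.3%) for B6-only peaks on KI broad regions, 7.84% (7.26% to 8.47%) for those with no KI region and 6.08% (5.59% to 6.62%) for the shared peaks inside genes. It was higher for the shared peaks than for those with no KI region on 19 of 19 autosomes, and than for the B6-only peaks on KI broad regions on 14, with 4 the other way. It rose with distance from genes, from 12.1% (9.69% to 15.1%) within 5 kb to 24.9% (21.8% to 28.2%) from 5 to 50 kb and 38.3% (30.3% to 46.9%) farther out. For the B6-only peaks on KI broad regions it was 8.42% (6.89% to 10.3%), 22.1% (19.8% to 24.5%) and 27.0% (21.5% to 33.3%) at the same distances. At each distance their interval overlapped that of the shared peaks. For those with no KI region the share was 5.64%, 9.02% and 7.45%. A stretch with at least 1000 copies was found in 190 shared peaks (13.6%, 11.9% to 15.6%). It was found in 11.5% (10.3% to 12.8%) of the B6-only peaks on KI broad regions, an interval that overlaps that of the shared peaks. For those with no KI region it was 9.86% (9.21% to 10.6%). Among KI refined peaks outside genes, the share with at least 50% of the stretches repeated was 20.9% (18.9% to 23.1%) for the shared ones. It was 14.3% (13.2% to 15.5%) for KI-only peaks on B6 broad regions and 12.5% (11.9% to 13.1%) for those with no B6 region. The authors kept reads that aligned to 1 position only, and a copy of 32 bases can still be told apart by the rest of a longer read, so these values describe the sequence and not the alignment. No repeat annotation was used, and repeat families are not named here. At 691 shared peaks none of the sampled stretches was repeated, and of these 47.6% (43.9% to 51.3%) lay within 5 kb of a gene.

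**Figure D5:**
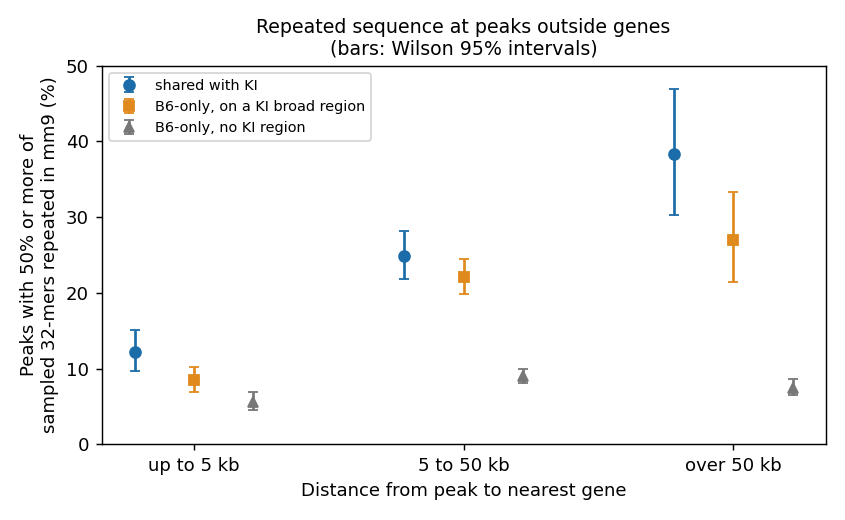
Percent of peaks outside genes with at least 50% of their sampled 32-base stretches repeated in mm9, by distance to the nearest gene, with Wilson 95% intervals, for the shared peaks and both sets of B6-only peaks. The shared peaks rise from 12.1% within 5 kb to 38.3% beyond 50 kb, whereas the peaks with no KI region stay between 5.64% and 9.02%.

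Base composition set the shared peaks apart much less. Their median GC content in the 400 bp windows was 41.25% (interquartile range 37.25% to 45.75%), against 41.5% for the B6-only peaks on KI broad regions and 40.75% for those with no KI region. The shared peaks had the higher median than the last set on 10 of 19 autosomes and the lower one on 7. The observed over expected frequency of CpG had a median of 0.137 in the shared peaks and 0.132 in those with no KI region. Short sequences were chosen on one set of chromosomes and counted on the other. The 10 8-mers most characteristic of shared peaks on odd-numbered autosomes, on either strand and against peaks with no KI region, were present in 8.25% of the 776 shared peaks there. On even-numbered autosomes, which had no part in the choice, at least 1 of them was found in 18 of 616 shared peaks (2.92%, 1.86% to 4.57%) and in 2.37% (1.92% to 2.91%) of the peaks with no KI region, and these intervals overlap. For the B6-only peaks on KI broad regions of the same autosomes the share was 2.73% (1.91% to 3.90%). Of the 10, 6 were more frequent there in the shared peaks than in the peaks with no KI region. The first of them, TGCGGTAA, was found in 0.773% of the shared peaks on odd-numbered and 0.325% on even-numbered autosomes.

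The shared peaks in the widest broad regions without an annotated gene were also examined. The widest such B6 region spanned 29000 bp on chromosome 5 from 105001001 to 105030000 and had the same ends in KI. It lay beyond D930016D06Rik, a long intergenic noncoding RNA gene, and held a shared peak of 701 bp whose KI partner of 274 bp ran from 105011392 to 105011665. Of the stretches sampled in this peak, 50% had further exact copies in mm9, up to 14 for a single stretch. Absence of a gene rests on the annotation used, and whether the region holds a gene missing from it was not tested. The sequence of this peak is shown because its region was the widest without an annotated gene. Capitals again mark bases in the refined peaks of both strains.
Peak in the region downstream of D930016D06Rik, 300 of its bases, chr5:105011360-105011659, forward strand: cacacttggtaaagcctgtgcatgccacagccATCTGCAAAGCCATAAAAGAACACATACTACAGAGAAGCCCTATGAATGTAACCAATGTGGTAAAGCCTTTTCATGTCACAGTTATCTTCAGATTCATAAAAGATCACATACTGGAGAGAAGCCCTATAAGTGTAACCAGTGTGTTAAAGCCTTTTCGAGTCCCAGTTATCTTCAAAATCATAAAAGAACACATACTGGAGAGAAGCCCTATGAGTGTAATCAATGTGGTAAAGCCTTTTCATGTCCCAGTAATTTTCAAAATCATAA
The next widest regions without a gene spanned 27500 bp upstream of St3gal1, 21500 bp downstream of Entpd1, which encodes an ATP-degrading surface enzyme, and 18500 bp each on chromosomes 17 and 12. On chromosome 17 the shared peak lay 25723 bp from its nearest gene, Gm9805, and on chromosome 12 it lay 135932 bp from Gm4419. The KI broad region was 4500 bp wide at the St3gal1 peak, 14500 bp at Entpd1, 13000 bp at the Gm9805 peak and 18500 bp at the Gm4419 peak, where both regions had the same ends. At the Gm9805 peak the refined peaks coincided almost fully, with 235 bp in B6 from 22852631 to 22852865, all of it within the 255 bp of KI, whereas at Entpd1 they had 19 bp in common.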

How the data were processed

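H3K36me3 ChIP-seq of germ cells was analysed from the lists of refined peaks and broad regions of B6 and KI as deposited (4 lists with chromosome, start and end on mm9, no counts or scores). Per the study's methods, the authors trimmed the reads with trimmomatic, aligned them to mm9 with BWA (1.2.3 in the submitters' processing notes), kept uniquely placed reads and combined the replicates. ZINBA then gave both lists per strain, with the input library as its control. Calling at 1 setting on merged reads means that a peak just under the caller's threshold in a strain is missing from its list. Overlaps used numpy 2.4.6 and pandas 2.3.3, and bedtools 2.31.1 gave the same 1392 peaks. Genes were those of GENCODE vM1, and the reference sequence (NCBIM37, the same assembly as mm9) was read with pysam 0.24.0. Wilson intervals came from scipy 1.17.1. Starts and ends were taken as 1-based and inclusive. The code was tested on simulated data. No test between strains was possible with 1 list each.

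The peaks, gene lists and comparisons were chosen with earlier results of these data known. Regions named are the 5 widest peaks, the 5 farthest from genes, the 5 closest matches of pairs of at least 300 bp, the 3 runs with the most peaks, the 5 in the widest B6 broad regions without a gene, and those next to a listed meiotic or germ cell gene, except that 1 of the peaks farthest from genes is not reported here. The lookup of 32-base stretches, the counts per stretch between genes and the Zfp and ribosomal protein genes given by name were chosen after values were seen. The hotspot, H3K4me3 and RNA-seq data cited by the study were not used here.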

Additional observations from a re-analysis of the deposited data

How the results depend on the processing

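Alternative settings gave 45 values, of which 30 were inside the 95% interval of the value reported (a number of peaks, inside 1.5 times it) and 15 were not. With at least 50% of the shorter peak in common, 8.68% of the B6 peaks outside genes were shared. With 50% of both peaks, 466 peaks and 4.08% remained as shared. With protein-coding genes alone, the share of B6 peaks that were shared was 13.1%, that of shared peaks within 5 kb of a gene 34.7%, that beyond the 3′ end among them 50.6% and that whose B6 broad region overlaps a gene 13.4%. Starting from the KI peaks, 8.52% of those outside genes were shared. With peaks within 1000 bp merged, the share was 12.8% and the median width 396 bp. Within 10 kb of a gene lay 59.8% of the shared peaks. Restricted to the shared peaks with no repeated 32-base stretch, a setting chosen after seeing the data, there were 691 peaks, of which 47.6% lay within 5 kb of a gene and 22.1% had a B6 broad region that overlaps a gene, with a median GC content of 42.25%. The changes in the number of peaks follow from the settings themselves, and the cause of the others was not tested. No paired analysis was possible because each strain has 1 pooled list. The lists give no read numbers, so whether depth limits the number of shared peaks could not be measured.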
